A study of Mus musculus with 9 samples.

Results

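Neuropeptides are cut from larger precursor proteins and released from neurons beside the fast transmitters. The 7 precursor genes described here are Cck, Penk, Pdyn, Tac1, Tac2, Crh and Adcyap1, which were chosen by name from the 31804 genes of the deposited count table. All 7 were in the table and all 7 passed the filter on low counts. Their RNA was measured in the dorsal hippocampus of male C57BL/6NCrl mice after knockdown of Camta1, a calmodulin-binding transcription activator. Mice received a stereotaxic injection of recombinant adeno-associated virus (rAAV) at 8 weeks of age, with a gene for a short hairpin RNA (shRNA) in its genome, and tissue was taken 3 weeks later. There were 3 groups of 3 animals, with 1 library each: Camta1 shRNA A, Camta1 shRNA B (a second targeting sequence) and control shRNA, a hairpin without a target. Every group, the controls included, carried virus and hairpin, and the sources used here do not give the promoter that drives the hairpin. The tissue was the mCherry-fluorescent part of the hippocampus, so each library holds infected and uninfected cells of many types. The comparisons ask which transcripts follow the loss of Camta1, and whether both hairpins give the same difference.

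In the hippocampus the precursors differ in the cells that make them, and these sets of cells need not be separate. Pdyn encodes prodynorphin, and granule cells of the dentate gyrus are its best known source there. Penk encodes proenkephalin, the other opioid precursor. Cck, the cholecystokinin precursor, is made by a class of interneurons and by pyramidal cells, and Tac1 and Tac2 encode the precursors of substance P and of neurokinin B. Crh, made by hippocampal interneurons, encodes corticotropin-releasing hormone, and Adcyap1 encodes pituitary adenylate cyclase-activating polypeptide (PACAP). Prohormone convertases and carboxypeptidases trim the precursors, and the peptides act on G protein-coupled receptors. Several of these genes are known to follow neuronal activity.

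CAMTA proteins carry a CG-1 DNA-binding domain, which in the plant Arabidopsis recognises sites with the core CGCG. Because the targeted gene is such a factor, the 250 bases before the transcription start were searched for CGCG, for the cyclic AMP response element TGACGTCA and for its core TGACG (read as CGTCA on the other strand). Windows came from RefSeq on GRCm38.p6 and were found for 5 of the 7 genes, with 7 windows in all. Penk and Crh were not searched. CGCG stood once in the Tac1 window and once in 1 of the 2 Pdyn windows, and in neither of the Adcyap1 windows nor in those of Cck and Tac2. Among all 32851 windows of that length, 33.8% held it. TGACGTCA was in none of the 7 windows, against 1.55% of all windows, and TGACG stood once in the Cck window and in each Adcyap1 window and 2 times in the Tac1 window, against 17.8% of all windows. The 2 Adcyap1 windows overlap (chr17:93198767-93199016 and chr17:93198918-93199167, plus strand), so the TGACG match in each may be the same site. A full TGACGTCA would also count as TGACG, and none was present. The windows with a motif of each kind are shown for Cck (chr9:121495695-121495944, minus strand), Pdyn (chr2:129699939-129700188, minus strand) and Tac1 (chr6:7554811-7555060, plus strand), written 5′ to 3′ in the direction of the gene, with CGCG and TGACG or CGTCA in capitals.
Cck: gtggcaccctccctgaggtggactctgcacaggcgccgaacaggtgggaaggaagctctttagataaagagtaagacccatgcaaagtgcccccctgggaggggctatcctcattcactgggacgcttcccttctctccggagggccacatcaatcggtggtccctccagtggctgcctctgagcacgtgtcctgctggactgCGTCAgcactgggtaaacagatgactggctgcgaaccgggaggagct
Pdyn: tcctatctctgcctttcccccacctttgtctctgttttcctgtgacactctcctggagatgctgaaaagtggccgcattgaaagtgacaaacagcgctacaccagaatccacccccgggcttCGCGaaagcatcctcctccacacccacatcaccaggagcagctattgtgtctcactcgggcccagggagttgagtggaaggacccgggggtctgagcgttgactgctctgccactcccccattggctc
Tac1: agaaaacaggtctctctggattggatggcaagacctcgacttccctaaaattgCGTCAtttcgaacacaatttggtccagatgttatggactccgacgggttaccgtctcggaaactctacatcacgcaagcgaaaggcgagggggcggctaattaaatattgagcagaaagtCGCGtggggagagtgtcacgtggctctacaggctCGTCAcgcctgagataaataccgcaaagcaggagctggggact
These matches describe the letters only, and no binding data were used here.

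The libraries held 29123744 to 38189288 counted reads, so that 1 read was worth 0.0259 to 0.0339 CPM (counts per 1000000 counted reads, TMM-scaled). Together the 7 precursors took 0.0294 to 0.0417% of the counts, and the lowest count of any of them was 24 reads (Adcyap1 in shRNA B replicate 2). Camta1 itself had 231, 174 and 254 CPM in the 3 shRNA A libraries and 239, 146 and 266 CPM in the 3 shRNA B libraries, against 427, 455 and 442 CPM in controls. All 6 knockdown libraries were below all 3 controls, at 49.8% and 49.1% of the control mean for shRNA A and shRNA B. In edgeR's quasi-likelihood fit these were log2 fold changes of -1.01 ± 0.22 and -1.02 ± 0.22 (SE) with Benjamini-Hochberg adjusted p = 0.388 and 0.0776, so that edgeR did not call the targeted gene with all libraries, while DESeq2 did at adjusted p = 0.0152 and 0.00174. Without shRNA B replicate 2, the lowest of the 9, edgeR's adjusted p was 0.0150 for shRNA A and 0.0367 for shRNA B, and with both groups fitted alone it was 0.0128 for shRNA A. The hippocampal markers Prox1 (dentate gyrus) at 76.3 to 150.1 CPM, Wfs1 (CA1) at 120 to 347 CPM and Bok (CA3) at 51.9 to 87.7 CPM were present in every library. Of the 11 genes of the striatal list in the table, the dopamine and adenosine receptors Drd1a, Drd2 and Adora2a were at 1.66 to 3.64 CPM, while Gng7 (268 to 318 CPM), Pde10a (82.5 to 113 CPM) and Ppp1r1b (52.7 to 78.0 CPM) were as high as the hippocampal markers. Control replicate 3 stood apart in its choroid plexus transcripts, with a summed 1059 CPM over 8 markers against 24.2 to 45.8 CPM in the other 8 libraries. Control replicate 1 also stood apart: 8 of the 9 meningeal and fibroblast markers were highest there, with Dcn at 21.3 CPM against 1.98 to 5.51 CPM in the others, and Calb2 was at 34.9 CPM against 5.28 to 12.3 CPM.

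Compared per length, the precursors spanned more than 2 orders of magnitude, with Cck far above the rest. Divided by exon length, Cck averaged 240.1 CPM per kilobase in shRNA A, 227 CPM per kilobase in shRNA B and 212 CPM per kilobase in controls. Penk followed at 21.8, 21.8 and 17.6 CPM per kilobase in shRNA A, shRNA B and control libraries. Pdyn came next at 6.93, 6.99 and 8.27 CPM per kilobase in the same order of groups. In all 3 groups the ranges of Cck, Penk and Pdyn did not overlap with each other or with the 4 rarer genes below them. In controls those 4 ran Tac2 (1.395 CPM per kilobase), Tac1 (1.08), Crh (0.873) and Adcyap1 (0.574), and only the neighbours Crh and Adcyap1 had overlapping ranges. The order of these 4 was Tac2, Crh, Tac1 and Adcyap1 in both knockdown groups. There Tac2 and Crh overlapped in both groups, Crh and Tac1 overlapped in shRNA B, and Tac1 and Adcyap1 overlapped in shRNA A.

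**Figure D1:**
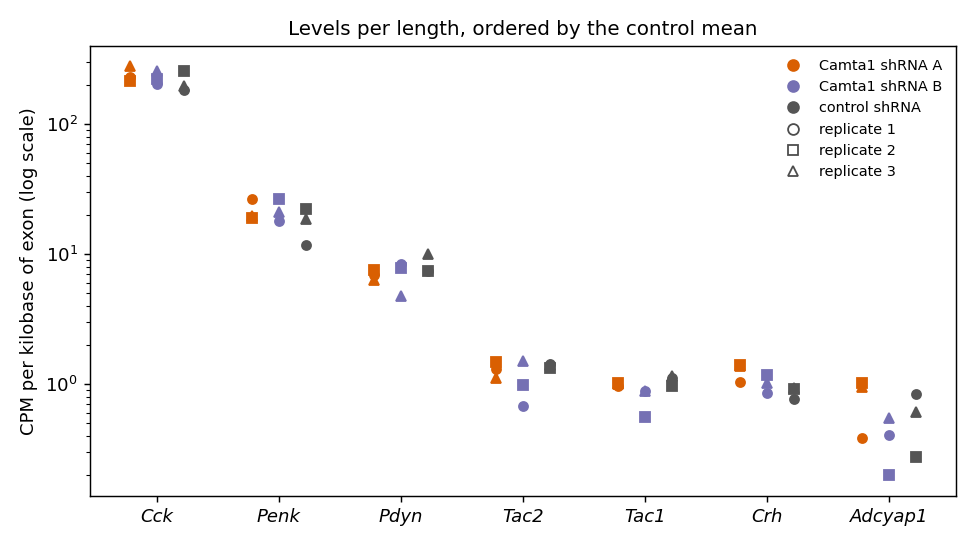
Level of each precursor transcript in CPM per kilobase of exon (log axis), ordered by the control mean; orange points are Camta1 shRNA A, violet points Camta1 shRNA B and grey points control shRNA, with 1 symbol per replicate. Cck lies near 200 CPM per kilobase in every group, Penk and Pdyn between about 5 and 27, and the other 4 around 1 or lower.

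None of the 7 precursors passed an adjusted p of 0.05 for either hairpin, for the mean of both hairpins or between the hairpins. Across all 16438 genes tested, edgeR called 0.0243% for shRNA A against control, 1.02% for shRNA B against control, 0.0973% for the mean of both against control and 0% between the hairpins, so a count of 0 of 7 is near these shares. At an unadjusted p under 0.05 there were 2 of 28 tests, Crh for shRNA A and Tac1 for shRNA B, where the share of all genes was 6.9% for shRNA A, 12.8% for shRNA B, 10.4% for the mean of both and 9.34% between the hairpins. DESeq2 called none of the 7 either, and over 15 alternative settings the lowest adjusted p of any precursor was 0.164. The median log2 fold change of the 7 was 0.18 for shRNA A, -0.24 for shRNA B, -0.06 for the mean of both and -0.32 for shRNA B minus shRNA A, where the median of all genes was at most 0.01 from 0. In the authors' deposited table, whose adjusted p is for a likelihood ratio test, the 7 ran from 0.487 (Tac1) to 0.926 (Penk).

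**Figure D2:**
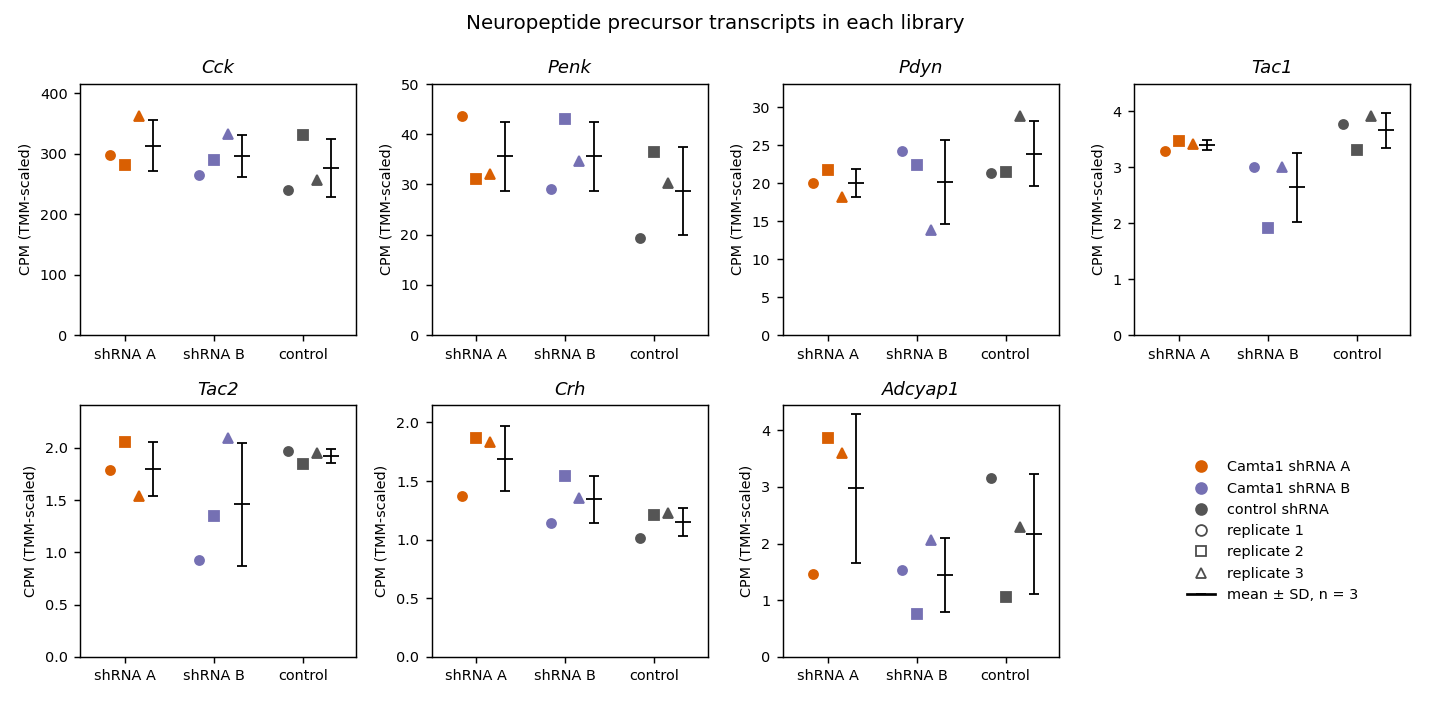
CPM of the 7 precursor transcripts in each library (linear axes from 0), with Camta1 shRNA A, Camta1 shRNA B and control shRNA from left to right; points are libraries, with 1 symbol per replicate, and bars are the mean ± SD of 3. The shRNA A values of Crh all lie above the controls, the shRNA B values of Tac1 all lie below them, and elsewhere each knockdown group overlaps the controls.

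Of the opioid precursors, Penk had 43.6, 31.0 and 32.1 CPM in shRNA A libraries, 29.1, 43.0 and 34.6 CPM in shRNA B libraries, and 19.3, 36.5 and 30.3 CPM in controls. Control replicate 1 was the lowest of all 9 and the groups overlapped. That library was also the one high in meningeal and fibroblast markers, and over the 9 libraries Penk had r = -0.869 and rho = -0.783 to those 9 markers (r = -0.663 without the 2 farthest libraries) and r = -0.835 and rho = -0.583 to the mossy cell markers (r = -0.302 without the 2 farthest). Their part in the Penk values was not tested. The difference was 0.31 ± 0.25 (log2, SE; 95% interval -0.26 to 0.88) for shRNA A and 0.31 ± 0.25 (-0.26 to 0.87) for shRNA B, with adjusted p = 0.830 and 0.680 in edgeR. Without control replicate 1 both differences shrank to 0.09. Penk shares 233 exon bases with the transcript A830012C17Rik on the opposite strand, and the libraries keep no strand, so reads there could be of either gene.

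Pdyn had 20.1, 21.8 and 18.2 CPM in shRNA A libraries, 24.3, 22.5 and 13.8 CPM in shRNA B libraries, and 21.3, 21.5 and 28.8 CPM in controls. The extremes were shRNA B replicate 3 at the low end and control replicate 3 at the high end, and the groups overlapped. Control replicate 3 was also the library high in choroid plexus transcripts, whose part in the Pdyn values was not tested. The log2 differences were -0.26 ± 0.20 (95% interval -0.71 to 0.20) for shRNA A and -0.24 ± 0.20 (-0.69 to 0.21) for shRNA B, with adjusted p = 0.826 and 0.688 in edgeR. With 1 library left out, the differences from control ran from -0.33 to -0.10 for shRNA A and from -0.40 to -0.03 for shRNA B. Between the hairpins Pdyn differed by 0.01 ± 0.20 (-0.44 to 0.47).

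Pdyn followed the dentate granule cell markers from library to library. Over the 9 libraries its log2 level had a Pearson r of 0.955 and a Spearman rho of 0.833 with the mean log2 level of 11 granule cell markers (Prox1, Dsp, C1ql2 and others), r = 0.965 for deviations from the group means, and r = 0.770 without the 2 libraries farthest from the median of the markers. The summed granule cell markers were 663, 715 and 618 CPM in shRNA A, 771, 733 and 471 CPM in shRNA B, and 681, 621 and 862 CPM in controls. The lowest and the highest sum were in the same libraries as the lowest and the highest Pdyn, shRNA B replicate 3 and control replicate 3. None of the 11 markers was called in any comparison. In tissue such as this, fewer cells of a type and less RNA per cell cannot be told apart. The points share library, dissection and scaling, and 105 such pairs of a precursor and a marker list were computed. Cck went the other way, with r = -0.745 and rho = -0.850 to the same markers, and r = -0.659 to Pdyn itself.

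Cck had 297, 281 and 362 CPM in shRNA A libraries, 264, 289.6 and 333 CPM in shRNA B libraries, and 239.9, 331 and 257 CPM in controls. Each group spans a similar range, and control replicate 2 is close to the highest shRNA B library and below the highest shRNA A library. The log2 differences were 0.18 ± 0.14 (95% interval -0.12 to 0.48) for shRNA A and 0.10 ± 0.14 (-0.20 to 0.40) for shRNA B, with adjusted p = 0.816 and 0.827 in edgeR. With 7074 to 11047 reads per library, Cck was the most precisely measured of the 7, and its 95% intervals against control ran from 0.923 to 1.396 times the control level for shRNA A and from 0.871 to 1.317 times for shRNA B. Its level also followed the mean log2 level of 18 activity-regulated genes (Fos, Arc, Ptgs2 and others), with r = 0.722 and rho = 0.750 over the 9 libraries. For deviations from the group means r was 0.697, and without the 2 farthest libraries it was 0.520. The summed level of the 18 genes was 1737 to 1911 CPM in shRNA A and 1462 to 1615 CPM in shRNA B, against 1359 to 1991 CPM in controls. In edgeR 1 of the 18 was called lower in shRNA B, as were 0.237% of all genes tested. The r of Cck with each single gene of this list was not computed. Single genes differed in shRNA A replicate 3, where Cck was highest. Vgf was also highest there (316 CPM), while Ptgs2, at 22.5 CPM, was near the low end of its 22.2 to 33.0 CPM.

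Of the tachykinin precursors, Tac1 had 3.29, 3.47 and 3.40 CPM in shRNA A libraries, 3.00, 1.92 and 2.99 CPM in shRNA B libraries, and 3.77, 3.31 and 3.90 CPM in controls. All 3 shRNA B libraries were below all 3 controls and below all 3 shRNA A libraries, while shRNA A overlapped the controls. Of all genes tested, 8.88% lay wholly lower in shRNA B than in controls and 6.95% wholly lower in shRNA B than in shRNA A. Tac1 differed by -0.47 ± 0.17 (log2, 95% interval -0.84 to -0.10) for shRNA B, 0.723 times the control level, with an unadjusted p of 0.0176 and adjusted p = 0.276 in edgeR, over alternatives with adjusted p from 0.221 to 0.632. The lowest value came from shRNA B replicate 2, with 61 reads, and without that library the difference was -0.29 with adjusted p = 0.632. For shRNA A the difference was -0.11 ± 0.17 (-0.48 to 0.26), with adjusted p = 0.914, and shRNA B minus shRNA A was -0.36 ± 0.17 (-0.73 to 0.02), with adjusted p = 0.558.

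Tac1 varied together with the mossy cell markers, which label glutamatergic neurons of the dentate hilus. With 6 such markers r was 0.866 and rho 0.917, r = 0.791 for deviations from group means and r = 0.905 without the 2 farthest libraries, although the list shares Calb2 with interneurons, Drd2 with striatum and the peptide gene Nmb. Ociad2 made up most of their summed level (99.8 to 136 CPM, of a sum of 121 to 153 CPM in shRNA A, 119 to 148 CPM in shRNA B and 126 to 155 CPM in controls) and did not follow Tac1 (r = -0.182). The other 5 had r from 0.595 (Calb2) to 0.873 (Glra3), and Glra3 was at only 0.252 to 1.42 CPM. With each marker left out in turn, r with the rest was 0.806 (without Glra3) to 0.947 (without Calb2). It was 0.859 without Ociad2, and rho fell to 0.617 without Calb2. The relation was not particular to this pair. Tac1 had r = 0.724 to the 10 neocortex and subiculum markers (0.347 without the 2 farthest libraries). To the 17 GABAergic neuron markers it had r = 0.644 (0.123 for deviations from group means). Adcyap1 had r = 0.653 to the mossy cell markers (0.312 without the 2 farthest libraries). With the 12 microglia markers Tac1 ran in the opposite direction (r = -0.786, rho = -0.917), with r = -0.434 for deviations from the group means. Their sum was 619.7 to 706 CPM in shRNA A and 712 to 796 CPM in shRNA B, against 579 to 619 CPM in controls, and 4 of the 12 rose in shRNA B, as did 0.779% of all genes tested. The part of these markers in the Tac1 values was not tested.

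Tac2 had 1.79, 2.06 and 1.54 CPM in shRNA A libraries, 0.931, 1.35 and 2.09 CPM in shRNA B libraries, and 1.97, 1.85 and 1.95 CPM in controls. The controls were close together, and shRNA B held both the lowest and the highest library of the 9. The log2 differences were -0.10 ± 0.25 (95% interval -0.64 to 0.45) for shRNA A and -0.41 ± 0.26 (-0.97 to 0.14) for shRNA B, with adjusted p = 0.960 and 0.551 in edgeR. Leaving out shRNA B replicate 3 moved the shRNA B difference to -0.76, with the adjusted p of 0.164 given above. The counts behind these values were 36 to 65 reads per library.

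**Figure D3:**
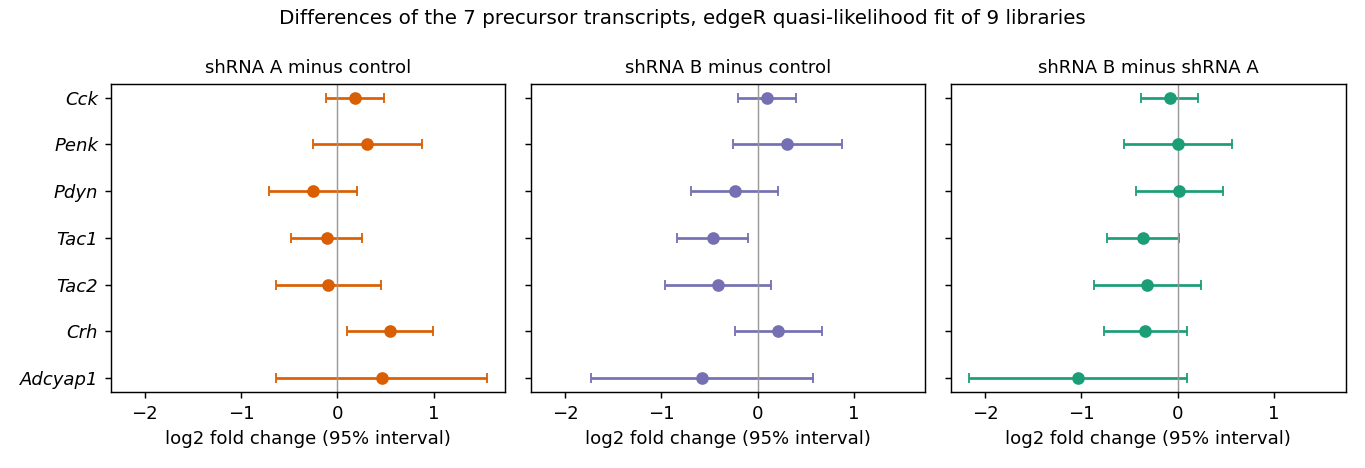
Log2 fold change (point) and 95% interval (bar) of each precursor transcript in 3 panels, 1 for each Camta1 hairpin against control and 1 for shRNA B against shRNA A, from the edgeR fit over all 9 libraries. Only the intervals of Crh for shRNA A and Tac1 for shRNA B exclude 0, and neither passed after adjustment; Adcyap1 has the widest interval in all 3 panels.

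Crh had 1.37, 1.87 and 1.83 CPM in shRNA A libraries, 1.14, 1.54 and 1.35 CPM in shRNA B libraries, and 1.02, 1.21 and 1.23 CPM in controls. All 3 shRNA A libraries were above all 3 controls, as were 6.84% of all genes tested, and shRNA B overlapped both groups. For shRNA A the difference was 0.55 ± 0.21 (log2, 95% interval 0.104 to 0.996), 1.46 times the control level, with an unadjusted p of 0.0197 and adjusted p = 0.686 in edgeR, over alternatives with adjusted p from 0.544 to 0.998. For shRNA B it was 0.21 ± 0.21 (-0.24 to 0.67), with adjusted p = 0.743, and for the mean of both hairpins 0.38 ± 0.18 (-0.01 to 0.78), with adjusted p = 0.495. Crh was higher than the control mean in 5 of the 6 knockdown libraries, at 30 to 58 reads per library.

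Adcyap1 was the most variable of the 7. It had 1.47, 3.86 and 3.6 CPM in shRNA A libraries, 1.53, 0.755 and 2.06 CPM in shRNA B libraries, and 3.15, 1.05 and 2.30 CPM in controls. Every group held a library well below its others, and the highest of the 9 was 5.12 times the lowest. The biological coefficient of variation (BCV), which is the spread between replicates beyond counting error, was 40.9% in edgeR, above 99.3% of the genes tested, where 16.4% was the trend at its level. The difference was 0.46 ± 0.48 (log2, 95% interval -0.63 to 1.56) for shRNA A and -0.58 ± 0.51 (-1.73 to 0.58) for shRNA B, with adjusted p = 0.866 and 0.712 in edgeR. Between the hairpins it was -1.04 ± 0.50 (-2.17 to 0.09), with adjusted p = 0.577. A level 2 times that of controls lies inside the interval for shRNA A, and a level of 0.5 times lies inside that for shRNA B.

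The other precursors were steadier. Penk had a BCV of 20.8%, higher than in 93.7% of genes and above its trend of 8.17%, and Pdyn one of 17.0% against a trend of 8.53%. Cck was at 12.1% against 8.77%. The 3 rarest others were near or under the trend at their level, Tac2 at 18.8% against 17.6%, Crh at 13.3% against 18.0% and Tac1 at 12.6% against 14.6%.

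The library-to-library variation of Adcyap1 followed markers of neocortex and subiculum. Its r with the mean log2 level of 10 such markers (Fezf2, Rxfp1, Cux2 and others) was 0.933, its rho 0.917, r = 0.905 for deviations from the group means, and r = 0.875 without the 2 farthest libraries. The markers differed in how closely they followed: r with Adcyap1 was 0.883 for Rxfp1, which ranged most (0.660 to 8.51 CPM), and 0.790 for Fezf2, but 0.223 for Rorb and 0.168 for Tle4, which varied little (18.9 to 24.3 CPM and 48.8 to 61.4 CPM). The median over the 10 was 0.570, and with each marker left out in turn, a check added after the data were seen, r with the rest was 0.893 to 0.950 (0.932 without Rxfp1). Their sum was 242, 276 and 273 CPM in shRNA A, 231, 212 and 270.1 CPM in shRNA B, and 260.3, 239 and 245 CPM in controls. The lowest sum was in shRNA B replicate 2 and the highest in shRNA A replicate 2, the libraries with the lowest and the highest Adcyap1. None of the 10 markers was called in any comparison, and the part of tissue composition in the Adcyap1 values was not tested.

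**Figure D4:**
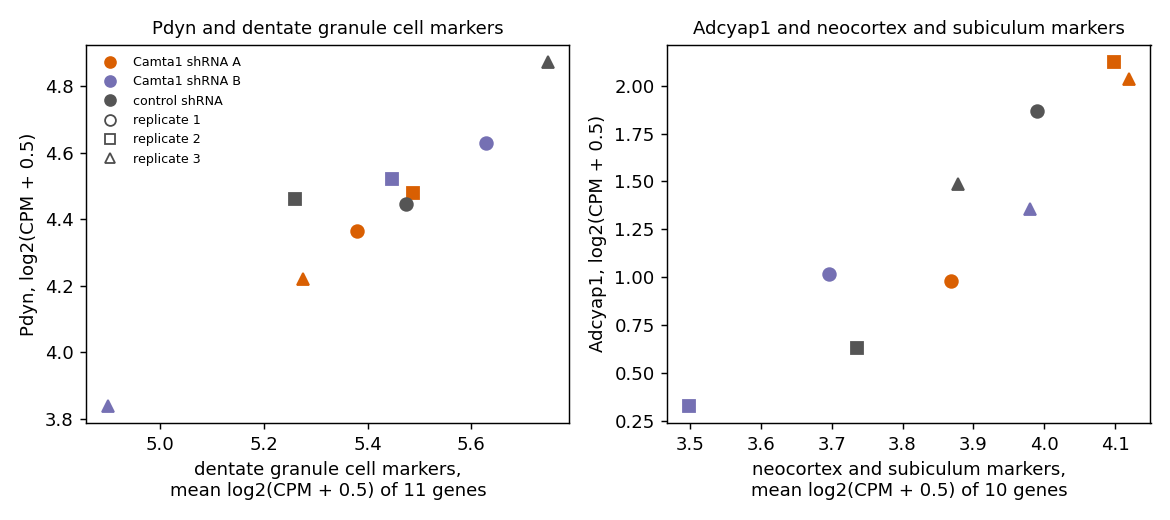
Left, log2(CPM + 0.5) of Pdyn against the mean log2(CPM + 0.5) of 11 dentate granule cell markers; right, Adcyap1 against 10 neocortex and subiculum markers; each point is a library, orange for Camta1 shRNA A, violet for Camta1 shRNA B and grey for control shRNA, with 1 symbol per replicate. Both panels rise from lower left to upper right (r = 0.955 and 0.933 over 9 libraries). On the left, libraries of the 3 groups are mixed along the line. On the right, shRNA A replicates 2 and 3 have the highest marker means (4.10 and 4.12). The lowest there are shRNA B replicates 2 and 1 (3.50 and 3.70).

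The genes whose pattern over the 9 libraries was most like each precursor were sought by Pearson r of log2 levels among the 11808 genes that averaged 5 CPM or more. They were Vwa3b (r = 0.976) and Tmem108 (0.971) for Pdyn, Mis18a (0.946) and Rab10 (0.937) for Penk, and Arl2 (0.976) and Lin7b (0.975) for Cck. For Tac1 they were Rab2b (0.987) and Vps4b (0.979), and for Tac2 Hs6st2 (0.935) and Cxxc4 (0.908). Csnk1e (0.916) and Eml1 (0.916) were nearest to Crh, and Tshz3 (0.941) and Grik1 (0.923), a kainate receptor subunit, to Adcyap1. Each value is among the 2 highest of 11808, and such a search over 9 libraries picks out high r by itself. The libraries share scaling and dissection, and no test was made of the values. Among the 21 pairs of precursors themselves the highest r was 0.692 (Tac1 with Adcyap1) and the lowest -0.659 (Cck with Pdyn).

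**Figure D5:**
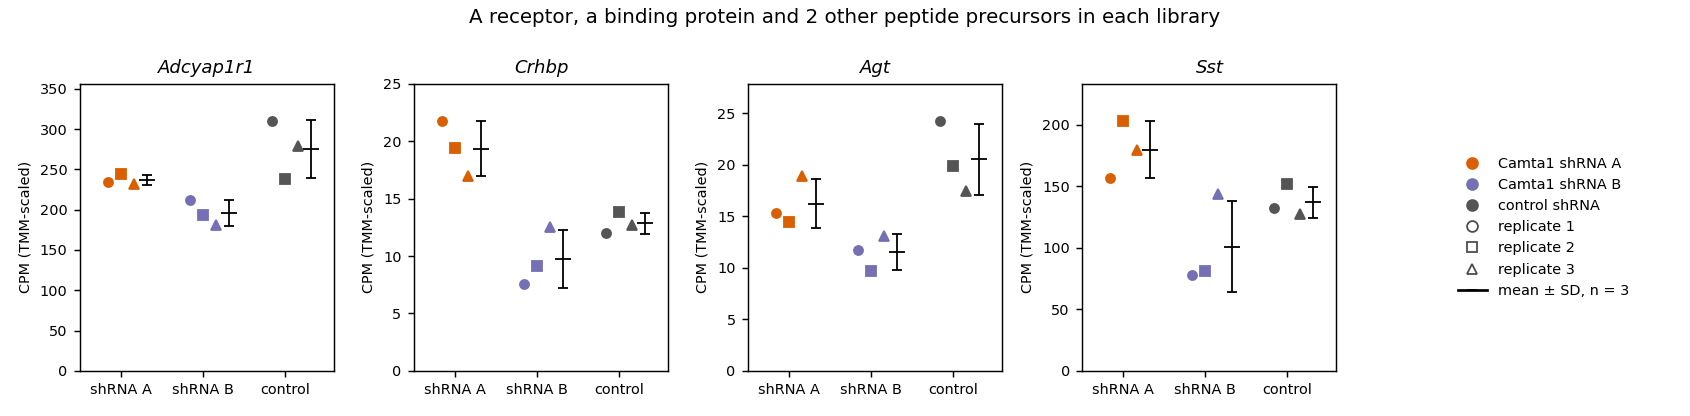
CPM (linear axes from 0) of the PACAP receptor Adcyap1r1, the Crh-binding protein Crhbp, angiotensinogen (Agt) and somatostatin (Sst) in each library, with Camta1 shRNA A, Camta1 shRNA B and control shRNA from left to right; points are libraries, with 1 symbol per replicate, and bars are the mean ± SD of 3. Adcyap1r1 and Agt are lowest in shRNA B, and Crhbp and Sst are higher in shRNA A than in shRNA B in every library.

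On the receiving side 1 gene passed the test. Of 15 receptor and binding protein genes 12 were tested, and Adcyap1r1, the receptor specific to PACAP, fell with shRNA B, as did 0.237% of all genes tested. It had 234, 244 and 232 CPM in shRNA A libraries and 213, 194 and 181 CPM in shRNA B libraries, against 309.9, 239 and 279 CPM in controls. All 3 shRNA B libraries were below all controls, as in 8.88% of all genes tested, and below all shRNA A libraries, as in 6.95%. The shRNA A libraries overlapped the controls. The difference for shRNA B was -0.49 ± 0.09 (log2, 95% interval -0.69 to -0.29) with adjusted p = 0.0309 in edgeR, over alternatives with adjusted p from 6.5e-05 (DESeq2) to 0.127. Adjusted p was 0.0503 when scaled by library size alone, 0.0930 when both groups were fitted alone, 0.127 when control replicate 1 was left out and 0.0800 when control replicate 3 was, 0.0516 or 0.0545 when shRNA A replicate 1 or 2 was left out, and 0.107 or 0.0672 when it was shRNA B replicate 2 or 3. For shRNA A the difference was -0.22 ± 0.09 (-0.42 to -0.02), with adjusted p = 0.720, and shRNA B minus shRNA A was -0.27 ± 0.09 (-0.47 to -0.07), with adjusted p = 0.366. The ligand gene Adcyap1 was not called in the same comparison.

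The Crh-binding protein gene Crhbp, which encodes a secreted protein that holds the peptide away from its receptors, lay apart in the 2 knockdown groups. It had 21.8, 19.4 and 17.0 CPM in shRNA A libraries and 7.58, 9.15 and 12.5 CPM in shRNA B libraries, against 11.97, 13.9 and 12.7 CPM in controls. Every shRNA A library was above every control and every shRNA B library, and shRNA B overlapped the controls. Among all genes tested, 6.84% lay wholly higher in shRNA A than in controls and 6.95% wholly lower in shRNA B than in shRNA A. Neither difference from control was called by edgeR, at 0.59 ± 0.16 (log2, 95% interval 0.25 to 0.94, adjusted p = 0.466) for shRNA A and -0.41 ± 0.16 (-0.76 to -0.05, adjusted p = 0.320) for shRNA B. The difference shRNA B minus shRNA A was -0.998 ± 0.159 (-1.35 to -0.65) with adjusted p = 0.0905 in edgeR, which called no gene in this comparison, while DESeq2 called Crhbp at adjusted p = 7.3e-06. In edgeR the adjusted p was 0.0488 without the low-count filter, 0.0460 without shRNA B replicate 1 and 0.00182 without shRNA B replicate 3, and that last fit also gave 0.0465 for shRNA B against control. Crh, the gene of the peptide it binds, was not called between the hairpins (-0.34 ± 0.20, adjusted p = 0.657).

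The other abundant receptors, the nociceptin receptor Oprl1 and the VIP and PACAP receptor Vipr1, differed little. Oprl1 averaged 38.4 ± 3.05 CPM in shRNA A and 36.6 ± 1.86 CPM in shRNA B, against 42.1 ± 5.96 CPM in controls (SD, n = 3 each). Vipr1 averaged 13.4 ± 1.31 CPM in shRNA A and 14.8 ± 0.584 CPM in shRNA B, against 13.9 ± 1.47 CPM in controls. Adjusted p in edgeR was at least 0.417 for both genes against control. The median log2 fold change of the 12 tested receptor genes was -0.10 for shRNA A, -0.30 for shRNA B and -0.28 for shRNA B minus shRNA A, with medians of all genes within 0.01 of 0. Cckar, Tacr2 and Tacr3 had too few counts to be tested, so of the tachykinin receptors only Tacr1, the substance P receptor, was.

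None of the 17 tested peptide processing genes, of 18 listed, was called in the 4 comparisons. The carboxypeptidase gene Cpe averaged 2861 ± 217 CPM in shRNA A and 2760.0 ± 345 CPM in shRNA B, against 3029 ± 315 CPM in controls. The convertase Pcsk2 averaged 249 ± 10.7 CPM in shRNA A and 240.1 ± 18.4 CPM in shRNA B, against 253 ± 29.5 CPM in controls, and its log2 differences were -0.02 ± 0.09 and -0.07 ± 0.09. Pcsk1n, which encodes proSAAS, an inhibitor of the other convertase, averaged 716 ± 155 CPM in shRNA A and 710.1 ± 89.1 CPM in shRNA B, against 672 ± 133 CPM in controls. Pam, the amidating enzyme that finishes many of these peptides, averaged 188 ± 8.51 CPM in shRNA A and 155 ± 14.5 CPM in shRNA B, against 183 ± 10.4 CPM in controls, a difference of -0.24 ± 0.08 (log2) for shRNA B with adjusted p = 0.210 in edgeR. The median log2 fold change of the 17 genes was 0.01 for shRNA A and -0.03 for shRNA B. Mme, which encodes the peptide-degrading enzyme neprilysin, lies outside the rule for named genes and was picked after its values were seen. It averaged 5.60 ± 0.601 CPM in shRNA A and 3.64 ± 0.813 CPM in shRNA B, against 5.39 ± 0.379 CPM in controls. Its shRNA B difference of -0.56 ± 0.16 (log2) had adjusted p = 0.144 in edgeR with all libraries and 0.0360 without shRNA B replicate 1. Ctsl, of the same list and also outside the rule, went the other way. Its shRNA B difference was 0.202 ± 0.055 (log2), with adjusted p = 0.129 in edgeR and at least 0.0532 over the alternatives.

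Of 24 further precursor genes, 17 were tested and 1 passed. Agt, which encodes angiotensinogen and is made in brain mainly by astrocytes, fell with shRNA B, as did 0.237% of all genes tested. It had 15.3, 14.4 and 18.95 CPM in shRNA A libraries and 11.7, 9.69 and 13.1 CPM in shRNA B libraries, against 24.3, 19.9 and 17.4 CPM in controls. All shRNA B libraries were below all controls (as in 8.88% of all genes tested) and below all shRNA A libraries (6.95%), and shRNA A overlapped the controls. For shRNA B the difference was -0.83 ± 0.15 (log2, 95% interval -1.16 to -0.51) with adjusted p = 0.0289 in edgeR, over alternatives with adjusted p from 1.8e-05 (DESeq2) to 0.106. Adjusted p was 0.0663 when both groups were fitted alone, 0.106 when control replicate 1 or 2 was left out and 0.0529 when control replicate 3 was, and 0.0505 or 0.0906 when it was shRNA B replicate 1 or 2. For shRNA A it was -0.34 ± 0.15 (-0.66 to -0.02), with adjusted p = 0.720, and shRNA B minus shRNA A was -0.50 ± 0.15 (-0.82 to -0.17), with adjusted p = 0.327. The summed level of 10 astrocyte markers was 3823 to 4274 CPM in shRNA A and 3749 to 4071 CPM in shRNA B, against 3785 to 4166 CPM in controls. This sum hides markers whose shRNA B values lay on opposite sides of the controls. Gja1 was at 194 to 277 CPM in shRNA B against 318 to 349 CPM in controls, and 8.88% of all genes tested likewise lay wholly lower. Gfap was at 653 to 958 CPM against 434 to 539 CPM, and Aldh1l1 at 81.7 to 90.4 CPM against 58.0 to 66.0 CPM. In edgeR 1 of the 10 was called higher in shRNA B, as were 0.779% of all genes tested, and none was called lower, Gja1 included. The microglia markers that rose in shRNA B are given with Tac1. The part of the astrocyte and microglia markers in the Agt and Adcyap1r1 values was not tested.

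The interneuron peptide Sst had 157, 203 and 179.7 CPM in shRNA A libraries and 78.1, 81.1 and 143 CPM in shRNA B libraries, against 132, 151 and 128 CPM in controls. It was higher in every shRNA A library than in any control or shRNA B library, and shRNA B was split, with replicate 3 among the controls. Such separation held for 6.84% of all genes tested for shRNA A above controls, and for 6.95% for shRNA B below shRNA A. The log2 differences were 0.39 ± 0.23 for shRNA A and -0.44 ± 0.23 for shRNA B, with adjusted p = 0.764 and 0.468 in edgeR, and -0.83 ± 0.23 for shRNA B minus shRNA A, with adjusted p = 0.325. Without shRNA B replicate 3 the shRNA B difference had adjusted p = 0.0111 and the difference between the hairpins 0.00182. The 17 GABAergic neuron markers summed to 1219 to 1250.0 CPM in shRNA A and 1063 to 1234 CPM in shRNA B, against 1250.0 to 1416 CPM in controls, with none of them called. Npy, made by many interneurons, averaged 44.6 ± 5.72 CPM in shRNA A and 37.6 ± 7.23 CPM in shRNA B, against 41.3 ± 1.98 CPM in controls. Nucb2, the nesfatin precursor, averaged 14.5 ± 0.637 CPM in shRNA A and 14.9 ± 0.674 CPM in shRNA B, against 13.7 ± 0.490 CPM in controls. The median log2 fold change of the 17 genes was 0.23 for shRNA A, -0.14 for shRNA B and -0.30 for shRNA B minus shRNA A.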

How the data were processed

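The 9 libraries were made from polyA RNA with a kit that keeps no strand, per the labels' protocols. The authors deposited raw read counts per Ensembl gene, and, per the submitters' processing notes, used TopHat 1.4.1, SAMtools 0.1.19, HTSeq 0.6.1 and DESeq2 1.4.5 in R 3.1.1 with genome build mm9; the sources used here do not name the gene annotation. Per the file headers, the authors' deposited table also holds a mean normalized signal, log2 fold changes, their standard errors and a test statistic (a score each), and p-values. Only the adjusted p-values were quoted from it.

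Counts were fitted with edgeR 4.0.16 (robust quasi-likelihood test, TMM scaling, 3 groups in 1 model, filterByExpr leaving 16438 genes) in R 4.3.3, with Benjamini-Hochberg adjustment over all genes tested and a threshold of 0.05. DESeq2 1.42.0 and 14 other settings were alternatives. SE and 95% intervals are of log2 fold changes; 3 animals a group limit them. Intervals and spreads include animal and dissection. Levels are TMM-scaled CPM, per kilobase with GENCODE exon lengths of GRCm38, matched by gene identifier. Correlations used log2(CPM + 0.5). The fit was tested on simulated counts. Members and lists were chosen with earlier results of these data known. Named genes were all 7 members, called genes and the 4 highest of each list, and the 2 genes most like each member. No pair of libraries within a group was a duplicate (chi-square per degree of freedom of 7.9 or more between replicates). Libraries of different groups were not compared in this way.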

Additional observations from a re-analysis of the deposited data

Results flagged for a closer look

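Crhbp is listed because every shRNA A library moved up and the shRNA B libraries moved down on average relative to controls: its log2 fold change of shRNA B minus shRNA A was -0.998, with 19.4 ± 2.40 CPM in shRNA A and 9.74 ± 2.51 CPM in shRNA B, against 12.9 ± 0.943 CPM in controls (SD, n = 3 each). The difference between the hairpins was called by DESeq2 and, with edgeR, did not pass with all libraries (adjusted p = 0.0905). The outliers of single groups were not tested, since each group holds 3 libraries.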

How the results depend on the processing

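No precursor was called under any of the 15 alternatives, and 407 of 420 alternative values kept their direction. The 13 that reversed had SEs of 0.139 or more. Leaving out 1 library moved Tac2 for shRNA A over -0.207 to 0.002, Adcyap1 for the mean of both hairpins over -0.393 to 0.307 (0.307 without control replicate 1, 0.105 without shRNA A replicate 1, 0.092 without shRNA B replicate 2), and, for shRNA B minus shRNA A, Cck over -0.179 to 0.031, Penk over -0.160 to 0.169 and Pdyn over -0.142 to 0.223. Adcyap1 for the mean was 0.026 with the groups fitted alone, and Penk between the hairpins was 0.018 with library size alone. The causes were not tested. Counts of called genes depended more on the setting. With all libraries edgeR called 4 genes for shRNA A, 167 for shRNA B, 16 for the mean and 0 between the hairpins (1536 at an unadjusted p under 0.05); DESeq2 called 43, 386, 243 and 123. Without the low-count filter the counts were 9 for shRNA A, 67 for the mean and 21 between the hairpins, and with the groups fitted alone 18, 42 and 8 for shRNA A, shRNA B and the mean. Leaving out 1 library gave 0 to 10 for shRNA A, 13 to 217 for shRNA B, 1 to 52 for the mean and 0 to 110 between the hairpins. Without control replicate 1, 2 or 3 the shRNA B count was 13, 23 or 19. Among receptors, the 1 call for shRNA B became 0 with library size alone and with groups alone, and 0 to 1 when a library was left out; DESeq2 and the fit without a filter each called 1 for the mean (Adcyap1r1) and 1 between the hairpins (Crhbp), where leaving out 1 library gave 0 to 1. Processing genes gave 0 to 1 for shRNA B. Other precursors gave 0 for shRNA B with groups alone, 0 to 2 for shRNA B and 0 to 1 between the hairpins when a library was left out, and 1 for the mean with DESeq2 (Agt). The labels do not say that a replicate number marks anything shared, and the main fit did not pair by it. Deviations of same-numbered libraries correlated at -0.128 to 0.273. No values for differently numbered libraries stand beside these, so they cannot show whether a number marks a shared batch or day. With the replicate number as a block, edgeR called 5 genes for shRNA A, 148 for shRNA B, 31 for the mean and 1 between the hairpins, 0 precursors in each, and Camta1 at adjusted p = 0.0348 for shRNA B and 0.0400 for the mean. Scaling by library size alone moved the median of all genes by at most 0.022 (log2). At 24 to 124 reads per library, the 4 rarest precursors are limited by counting error as well as by the 3 animals.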
